A study of Rattus norvegicus with 9 samples.

Results

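Small and large proteoglycans of the extracellular matrix were followed in the livers of 9 male Sprague–Dawley rats, 3 in each of 3 groups. The members were a list of 8 genes, Dcn, Bgn, Lum, Fmod, Ogn, Prelp, Vcan and Hspg2, looked up by name among the 17156 gene names in the tables. Of these, 6 were found by symbol and 1, Hspg2, under AABR07073181.1, which RefSeq gives as its synonym. Ogn was not analysed here, so that 7 of the 8 genes have values. The normal group received saline without CCl4. The model group received CCl4 in oil, a toxin that causes liver fibrosis, at 2 ml/kg for 9 weeks. The TA group received the same CCl4 and then tormentic acid (TA), a plant triterpenoid, at 3 mg/kg for 6 weeks. Every model and TA rat had thus been given CCl4, and no CCl4-free rat given TA was analysed here. The labels name the TA libraries without a dose, and the dose is that of the study's design.

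A proteoglycan is a core protein that carries long, charged sugar chains called glycosaminoglycans. The small leucine-rich proteoglycans, among them decorin, biglycan, lumican, fibromodulin and PRELP, bind collagen and help to set the size and spacing of its fibrils, and decorin and biglycan also bind TGF-β. Versican is a large hyaluronan-binding proteoglycan of loose and provisional matrix, and perlecan is a heparan sulfate proteoglycan of basement membranes. In injured liver, activated stellate cells and portal fibroblasts are known sources of this matrix. In RNA of whole liver, more cells of a type and more RNA per cell cannot be told apart.

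The counted reads ran from 13156735 to 18090405 per liver. The first model rat stood apart from the other 8 livers. Its 50 most abundant genes took 27.9% of the reads, against 40.4% to 45.7% elsewhere, and reads fell on 15811 genes, against 14283 to 15465. Its TMM scaling factor was 1.69, and the others ran from 0.816 to 1.16. Albumin (Alb), the main secretory product of hepatocytes, was counted in every liver at 455545 reads or more. Its CPM in the first model rat was 0.315 times the mean of the other model rats. The differences of the members from the model group are therefore given with and without the first model rat.

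The regions around the start sites of Lum, Vcan and Fmod are shown because Lum and Vcan were the members with the largest difference between the first model rat and the other model rats, while Fmod stayed near the limit of counting in every group. They come from RefSeq assembly GRCr8 and run from 250 bases before to 50 bases after the start, 5′ to 3′ on the gene's strand. Lum lies at chr7:34245456-34245755 on the plus strand, Vcan, of which the first of 2 listed starts is shown, at chr2:22595906-22596205 on the minus strand, and Fmod at chr13:48045317-48045616 on the plus strand. For Vcan and Fmod this start is the end of the RefSeq gene record, whereas the Lum region begins 133 bases inside the gene record, at a start further downstream. Capitals mark every match, on either strand, to 4 short motifs.
Lum: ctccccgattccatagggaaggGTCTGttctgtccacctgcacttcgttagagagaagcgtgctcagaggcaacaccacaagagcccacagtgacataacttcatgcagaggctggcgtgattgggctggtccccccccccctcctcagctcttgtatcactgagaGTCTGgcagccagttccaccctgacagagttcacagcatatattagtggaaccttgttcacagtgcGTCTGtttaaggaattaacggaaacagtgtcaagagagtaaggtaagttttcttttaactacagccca
Vcan: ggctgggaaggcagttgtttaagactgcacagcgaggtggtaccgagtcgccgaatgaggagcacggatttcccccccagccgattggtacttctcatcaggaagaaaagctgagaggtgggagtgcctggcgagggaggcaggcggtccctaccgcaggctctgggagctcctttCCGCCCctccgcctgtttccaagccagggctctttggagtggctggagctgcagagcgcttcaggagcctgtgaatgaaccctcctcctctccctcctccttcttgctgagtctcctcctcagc
Fmod: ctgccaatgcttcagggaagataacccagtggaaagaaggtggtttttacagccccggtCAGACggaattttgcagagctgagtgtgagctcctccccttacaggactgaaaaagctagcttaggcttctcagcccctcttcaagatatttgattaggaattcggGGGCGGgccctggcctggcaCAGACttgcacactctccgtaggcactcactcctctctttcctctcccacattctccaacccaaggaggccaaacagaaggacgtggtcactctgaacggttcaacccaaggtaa
The SMAD motif CAGAC was found 3 times in the Lum region, 2 times in that of Fmod and 0 times in that of Vcan. The GC box GGGCGG was found 1 time each in Vcan and Fmod and 0 times in Lum. The TATA motif TATAAA and the AP-1 motif TGANTCA were found 0 times in all 3. Of the 33469 regions of 300 bases in the table, 50.1% held CAGAC, 33.1% GGGCGG, 14.2% TATAAA and 7.33% TGANTCA, so that the matches are of common kinds, and they describe letters and not binding. Dcn, Bgn and Prelp had no entry.

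Levels are given as CPM, read counts scaled to a common library total, after TMM normalization over all 9 livers. Levels of different genes are compared as the FPKM the authors deposited, which are scaled by the length of the gene model and by the reads of the library. Fold changes come from edgeR's quasi-likelihood test on the counts, p-values were adjusted over all genes tested (Benjamini-Hochberg), and a gene was called at an adjusted p under 0.05. The rats of each group are separate animals, and 3 against 3 is also the limit of every exact permutation test, whose smallest two-sided p is 0.1.

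**Figure D1:**
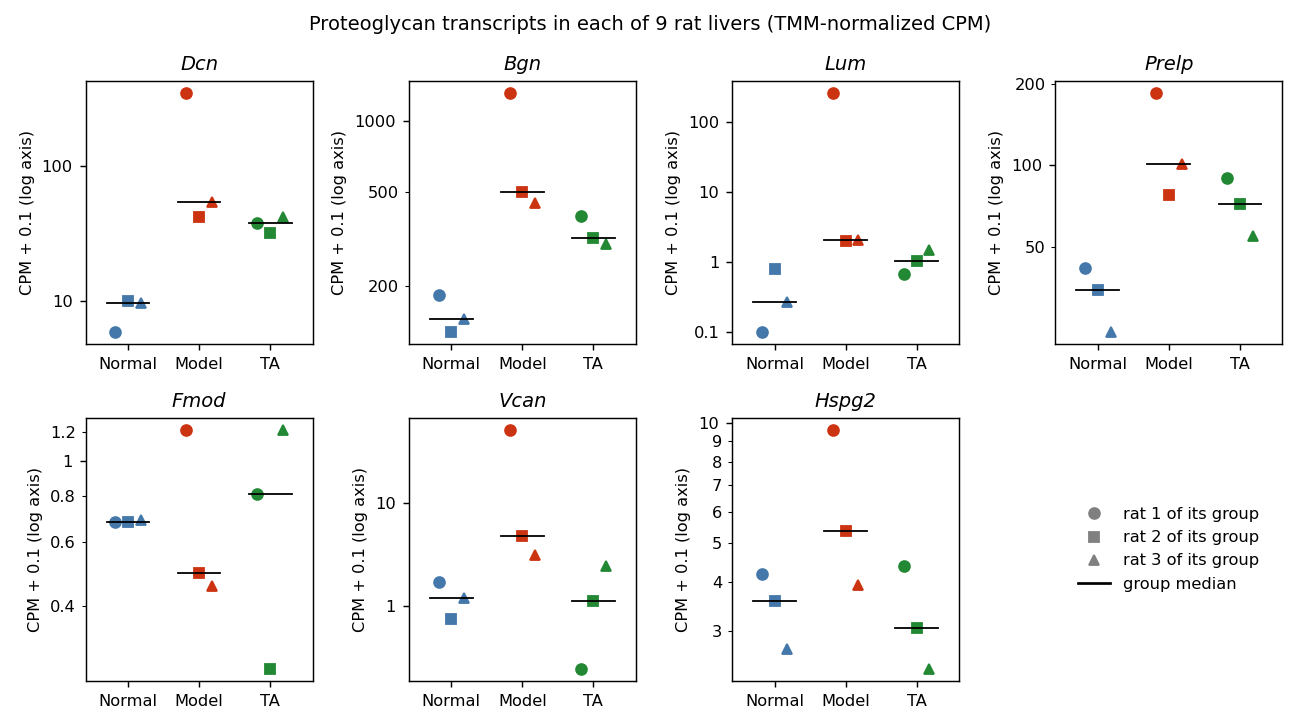
TMM-normalized CPM of the 7 measured proteoglycan genes in each liver, with 0.1 added, on a log axis of its own for each gene. Points are rats, with the shape giving the rat's number within its group, and bars are group medians. Dcn, Bgn and Prelp of the normal livers lie below all model and TA livers, and the first model rat is the highest of the model rats for every gene.

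Per length, Bgn was the most abundant member in every liver. FPKM of Bgn were 63.8, 45.0 and 48.4 in the normal livers, 918, 238 and 195 in the model livers, and 161, 118 and 113 in the TA livers. In the normal livers Prelp followed at 9.73, 8.20 and 5.41 FPKM and Dcn at 2.60, 4.54 and 4.16 FPKM, and these 3 ranges did not overlap. Hspg2 was at 0.454, 0.394 and 0.280 FPKM, and Lum, Fmod and Vcan were at 0.302 FPKM or lower in each normal liver. Among the lower members, Lum overlapped with Hspg2, Fmod and Vcan, whereas the ranges of Hspg2, Fmod and Vcan did not overlap each other. In each of the 3 model livers Dcn FPKM exceeded Prelp FPKM, with 318 against 86.3, 26.0 against 24.7 and 30.5 against 29.2, while in each normal liver Prelp was the higher. In the TA livers Dcn exceeded Prelp only in the third rat. The level of Hspg2 rests on a gene model of 7575 bases, shorter than the full perlecan transcript.

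In the model group, the fibril-binding proteoglycans Dcn, Bgn and Prelp were higher than in the normal group. Of the 6 members tested in Model vs Normal, 3 were called and all 3 were higher, where 6.86% of all 12730 genes tested were called higher and 7.87% in either direction. By the unadjusted rule of the study's methods, which asks for p under 0.05 together with a change beyond 1 on the log2 scale, 5 of the 6 were higher, against 16.6% of all genes. Groups did not overlap, with the model group higher, for 5 of the 6, against 20.9% of all genes. The median log2 fold change of the 6 was 3.24, against 0.02 for all genes tested, and 1.71 when the first model rat was left out. Lum reached the filter on low counts in 0 normal and 3 model livers and so had to differ to be tested. Fmod did not pass it.

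Dcn encodes decorin. Its CPM were 5.73, 9.85 and 9.48 in the normal livers, 349, 42.0 and 54.0 in the model livers, and 37.6, 31.8 and 41.7 in the TA livers. The normal livers lay below all others, and the TA livers lay below the model livers, by the narrow margin between 41.7 and 42.0 at its edge. In Model vs Normal the log2 fold change of Dcn was 4.16 (standard error 0.86, edgeR adjusted p = 0.0324). Leaving out that first model rat gave 2.50 (standard error 0.29, edgeR adjusted p = 0.00463).

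Bgn encodes biglycan, which can also signal through Toll-like receptors when it is free of the matrix. Its CPM were 183, 127 and 144 in the normal livers, 1314, 500 and 450 in the model livers, and 394, 320 and 299 in the TA livers. The 3 groups did not overlap, with normal lowest and model highest. In Model vs Normal Bgn had a log2 fold change of 2.32 (standard error 0.52, edgeR adjusted p = 0.0394). A fit on the other 2 model rats gave 1.63 (standard error 0.25, edgeR adjusted p = 0.0121).

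Prelp encodes a proline and arginine-rich leucine-rich repeat protein that links basement membranes to collagen. Its CPM were 41.8, 34.7 and 24.1 in the normal livers, 185, 77.5 and 101 in the model livers, and 89.4, 71.9 and 54.7 in the TA livers. All normal livers lay below the others, and the model and TA livers overlapped. Prelp in Model vs Normal was at a log2 fold change of 1.86 (standard error 0.39, edgeR adjusted p = 0.0334). On the other 2 model rats it was 1.39 (standard error 0.28, edgeR adjusted p = 0.0279). For Dcn, Bgn and Prelp alike, the edgeR adjusted p rose above 0.05 when any 1 of the 3 normal rats was left out, while the log2 fold changes stayed at 3.93 to 4.28, 2.19 to 2.47 and 1.63 to 2.03. Those fits called 51, 0 and 0 of all genes when the first, the second and the third normal rat were left out in turn, against 1002 with all rats. For Bgn the edgeR adjusted p was 0.0532 without the second model rat.

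Lum encodes lumican. Its counts were 0, 11 and 2 reads in the normal livers, 5804, 29 and 28 in the model livers, and 8, 11 and 19 in the TA livers. In CPM these were 0, 0.708 and 0.168, then 260, 1.91 and 1.98, then 0.569, 0.930 and 1.42. A count of 0 in the first normal rat allows up to 3 reads, or 0.249 CPM, by counting error alone. The first model rat held 134 times the mean CPM of the other model rats. The log2 fold change of Lum in Model vs Normal was 8.09 (standard error 2.30, edgeR adjusted p = 0.0683). It fell to 2.58 (standard error 0.94, edgeR adjusted p = 0.141) on the other 2 model rats.

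Vcan encodes versican. Its CPM were 1.58, 0.644 and 1.09 in the normal livers, 51.0, 4.67 and 2.97 in the model livers, and 0.142, 1.01 and 2.31 in the TA livers. The model livers were above all others, and the normal and TA livers overlapped. The counts behind these values were 42 or more in the model livers and 31 or fewer in all others. In Model vs Normal Vcan had a log2 fold change of 4.17 (standard error 1.14, edgeR adjusted p = 0.0618). The first model rat held 13.4 times the mean of the other model rats, and a fit without it gave 1.79 (standard error 0.52, edgeR adjusted p = 0.0816).

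Hspg2 encodes perlecan. Its CPM were 4.07, 3.48 and 2.60 in the normal livers, 9.54, 5.26 and 3.82 in the model livers, and 4.27, 2.96 and 2.31 in the TA livers. All 3 groups overlapped. The log2 fold change of Hspg2 in Model vs Normal was 0.89 (standard error 0.43, edgeR adjusted p = 0.215), and 0.41 on the other 2 model rats. Fmod encodes fibromodulin, and its counts were 7, 9 and 7 reads in the normal livers, 25, 6 and 5 in the model livers, and 10, 2 and 15 in the TA livers. The groups of Fmod overlapped, and a fit without the filter gave log2 fold changes of 0.10, 0.10 and 0.16 in Model vs Normal, TA vs Model and TA vs Normal (edgeR adjusted p = 0.944, 0.962 and 0.982), so that a difference was not detectable at these counts.

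**Figure D2:**
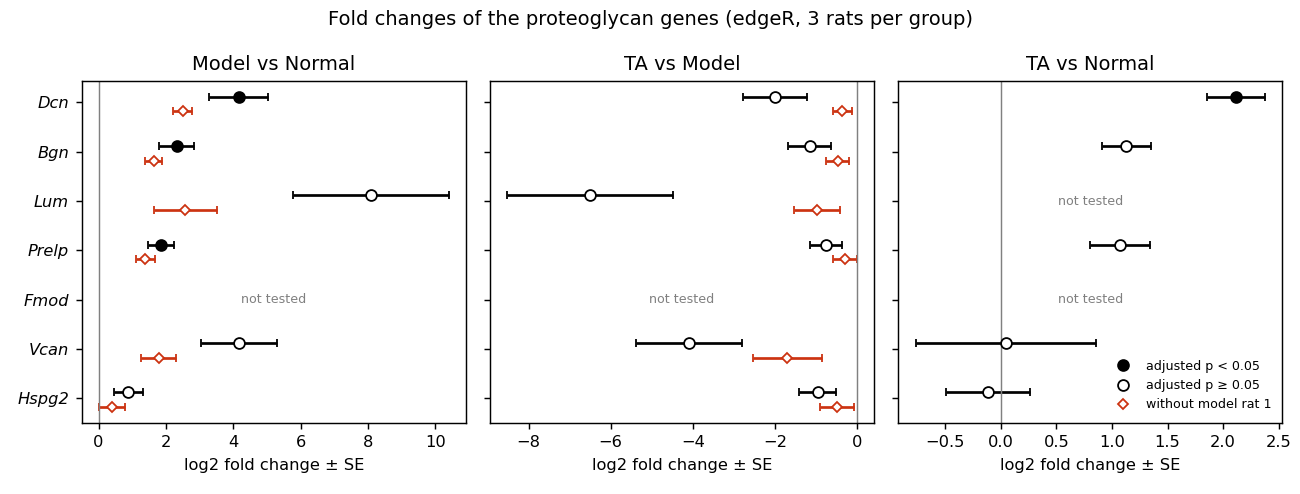
Log2 fold changes with standard errors of the measured proteoglycan genes in the 3 comparisons, with an axis of its own for each. Filled circles passed an adjusted p of 0.05, open circles did not, and open diamonds are the same fit without the first model rat. Lum moves from 8.09 to 2.58 in Model vs Normal and from -6.50 to -0.98 in TA vs Model when that rat is left out.

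Markers of the cells known to make this matrix were measured in the same livers. The summed CPM of 9 stellate cell and myofibroblast markers ran from 109 to 145 in the normal livers, was, in order of size, 455, 462 and 5252 in the model livers, and ran from 258 to 374 in the TA livers. Its most abundant gene was Col1a1, which is also one of the partners described further on. Without Col1a1 the other 8 summed to 100.4 to 127, 212 to 821 and 167 to 199 CPM in the same order. Of these 9 markers 8 had log2 fold changes above 0 in Model vs Normal, and 4 were called higher, against 6.86% of all genes. Their median was 2.71, and 1.06 without the first model rat. Near 0 were the stellate cell markers Lrat, Hgf and Reln, at -0.02, 0.07 and 0.25 (edgeR adjusted p = 0.986, 0.862 and 0.717). The summed CPM of 7 portal and capsule fibroblast markers, led by Eln, ran from 11.9 to 21.8, from 117 to 407 and from 53.4 to 83.8 in the same order. The 7 capsule mesothelium markers, led by Msln, summed to 2.69 to 4.57, 34.2 to 94.8 and 5.92 to 17.7 CPM. The 8 hepatocyte markers, led by Alb, summed to 114630 to 141893, 26770 to 96378 and 90316 to 152192 CPM.

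Marker sums of other cell types were as follows, each led by the gene of highest mean CPM over the 9 livers. The cholangiocyte markers, led by Spp1, summed to 18.9 to 32.1 CPM in the normal livers, 123 to 2008 in the model livers and 35.3 to 56.5 in the TA livers, and the macrophage markers, led by Gpnmb, to 202 to 258, 155 to 1643 and 243 to 474. Spp1 and Gpnmb led through the first model rat, which had 1845 and 1133 CPM of them. Of 7 cholangiocyte markers tested in Model vs Normal 6 were called higher, against 6.86% of all genes, with a median log2 fold change of 3.72. Without the first model rat 7 were called higher, with a median of 3.08. Krt7 among them was at most 0.168 CPM in the normal livers, under the filter's cutoff of 0.722 CPM, and so had to differ to be tested. Epcam and Clec4f, named after their values were seen, mark the same cell types. Epcam CPM were 20.2, 13.7 and 16.2 in the normal livers, 77.4, 96.3 and 53.9 in the model livers and 23.6, 24.7 and 26.1 in the TA livers. Clec4f, of Kupffer cells, was at a log2 fold change of -1.50 in Model vs Normal (edgeR adjusted p = 0.179). It was the 1 below 0 of 6 macrophage markers tested, and of the 5 above 0 2 were called higher, against 6.86% of all genes. Without the first model rat 4 were above 0, with 2 called higher and 1 lower. The vascular smooth muscle markers, led by Smtn, summed to 32.2 to 49.8, 37.3 to 186 and 31.8 to 54.1 CPM, and the endothelial markers, led by Lyve1, to 172 to 211, 169 to 326 and 206 to 267. The first model rat was the highest liver for the stellate, portal, cholangiocyte, macrophage, smooth muscle and endothelial sums. Adipoq of adipocytes and Cpa1 of pancreas had at most 4 and 3 reads in any liver. Mylpf led the skeletal muscle sum of 2.45 to 6.38 CPM. Cidec and Cela1 led the adipocyte and pancreas sums of 60.0 to 156 and 6.09 to 116 CPM, each highest in a normal liver. The part of these cell types in the differences of the members was not tested.

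In TA vs Model, which asks whether TA after CCl4 changed the matrix genes, all 6 members tested had lower fitted levels in the TA group, and 0 of the 6 passed an adjusted p of 0.05. Of all 12781 genes tested 0 were called (0%) by edgeR, 1999 (15.6%) had an unadjusted p under 0.05, and DESeq2 and limma voom called 526 and 169 genes but 0 members, with no DESeq2 p-value for Lum and Vcan. By the unadjusted rule 3 members, Dcn, Lum and Vcan, were lower, against 10.2% of all genes. The TA livers lay below the model livers without overlap for 4 members, Dcn, Bgn, Lum and Vcan, against 12.6% of all genes. The median log2 fold change of the 6 was -1.58, against -0.00 for all genes. The model livers are shared with Model vs Normal.

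For Dcn the log2 fold change in TA vs Model was -2.01 (standard error 0.78, edgeR adjusted p = 0.293) and for Bgn it was -1.16 (standard error 0.52, adjusted p = 0.326). Lum and Vcan had the largest values, -6.50 (standard error 2.02) and -4.09 (standard error 1.29), each with an edgeR adjusted p of 0.260. Prelp and Hspg2 were at -0.75 and -0.97 (edgeR adjusted p = 0.375 and 0.344). With the first model rat left out, the differences were -0.36 for Dcn, -0.48 for Bgn, -0.98 for Lum, -1.70 for Vcan, -0.30 for Prelp and -0.50 for Hspg2. Their median was then -0.49, against 0.03 for all genes, and their edgeR adjusted p ran from 0.570 to 0.772. Of all 12911 genes tested in that fit 0 were called. By the unadjusted rule 0 members passed, and the share of all genes under that rule in this fit is not given here. Each of these log2 fold changes was thus more than 1.5 times as large with that 1 liver as without it.

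In TA vs Normal, Dcn was higher in the TA group, 4.33-fold or 2.11 on the log2 scale (standard error 0.26, edgeR adjusted p = 0.0220). It was the 1 member called of 5 tested, where 0.23% of all 12179 genes tested were called higher and 0.263% in either direction. Bgn was at 1.13 (standard error 0.22, adjusted p = 0.102) and Prelp at 1.07 (standard error 0.27, adjusted p = 0.187). Dcn, Bgn and Prelp passed the unadjusted rule (4.24% of all genes, higher), and their TA livers lay above all normal livers (8.26% of all genes). Vcan and Hspg2 were at 0.04 and -0.12 (edgeR adjusted p = 0.996 and 0.977), with overlapping groups. The direction of the Vcan value turned with 4 of the alternatives and that of Hspg2 with 3.

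Deviations from the group mean, across genes, correlated at r from 0.258 to 0.501 between same-numbered TA and normal rats. For other pairs r was -0.452 to 0.171. The labels name no pairing or batch behind the numbers, and with 3 rats per group these correlations depend on each other. With the rat number as a block, Dcn, Bgn and Prelp had log2 fold changes of 2.14, 1.13 and 1.08 (edgeR adjusted p = 0.00838, 0.0177 and 0.0120). The block thus called 3 members in place of 1, and 203 of all genes in place of 32. Leaving out any 1 normal rat, or the first TA rat, ended the call of Dcn, with log2 fold changes from 1.90 to 2.25 and edgeR adjusted p from 0.0733 to 0.102, and a joint fit of all 9 livers gave an adjusted p of 0.427 for Dcn.

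Lum and Fmod did not pass the filter in TA vs Normal. Without the filter, Lum was at 1.58 (edgeR adjusted p = 0.735), and its normal and TA livers overlapped.

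**Figure D3:**
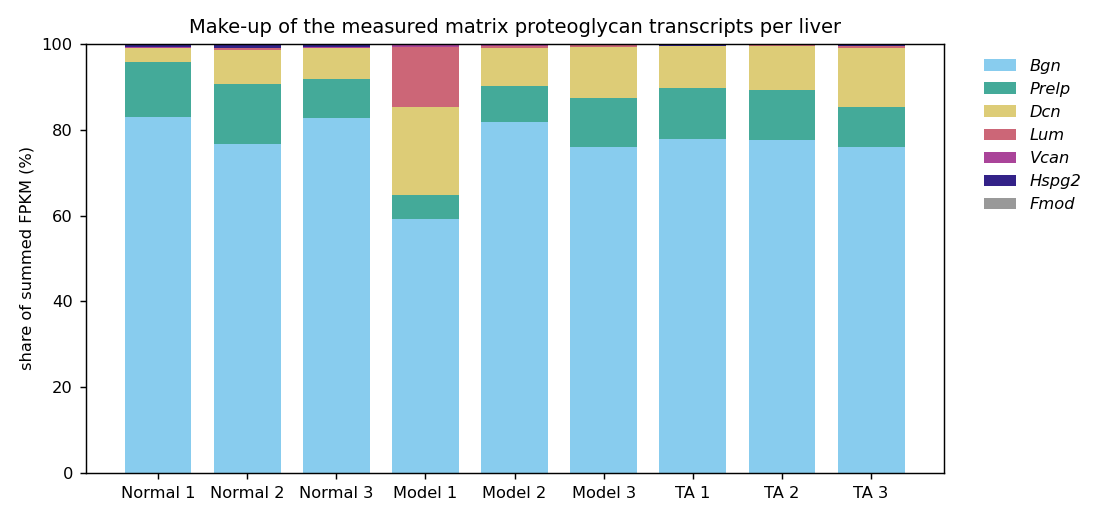
Share of each measured gene in the summed FPKM of the 7 proteoglycan genes, in percent, with 1 bar per liver. Bgn makes up 76.0% to 83.0% of the sum in 8 livers and 59.2% in the first model rat, where Dcn takes 20.5% and Lum 14.1%.

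The members also differed in their proportions. The summed FPKM of the 7 genes was 76.9, 58.6 and 58.6 in the normal livers, 1550, 291 and 257 in the model livers, and 207, 152 and 149 in the TA livers. The share of Dcn in this sum was 3.38%, 7.75% and 7.10% in the normal livers, 20.5%, 8.94% and 11.9% in the model livers, and 9.71%, 10.1% and 13.8% in the TA livers, so that each normal liver was below each CCl4-treated liver. Lum took 14.1% of the sum in the first model rat and at most 0.515% in any other liver.

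The ratio of Bgn to Dcn FPKM does not depend on the scaling between livers. It was 24.6, 9.90 and 11.7 in the normal livers, 2.89, 9.14 and 6.40 in the model livers, and 8.03, 7.72 and 5.51 in the TA livers. Each normal liver was above each model and TA liver. The mean log2 ratio was 3.82 ± 0.70 (SD, n = 3) in the normal, 2.47 ± 0.85 in the model and 2.81 ± 0.30 in the TA group. Model vs Normal differed by -1.36 on the log2 scale and TA vs Normal by -1.02 (two-sided exact permutation test, p = 0.1 for each, the smallest p that 3 against 3 allow). With 1 FPKM added to both genes these differences were -1.06 and -0.75 (exact permutation p = 0.2 and 0.1). TA vs Model differed by 0.34 (exact permutation p = 0.7), and by -0.13 without the first model rat. Model vs Normal was at -0.89 without that rat, and TA vs Normal at -0.62 without the first normal rat, whose ratio of 24.6 was the highest.

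Col3a1, a fibrillar collagen that decorin and biglycan bind, served as a second reference. Per 1000 CPM of Col3a1, Bgn CPM were 895, 941 and 1006 in the normal livers, 191, 672 and 440 in the model livers, and 474, 566 and 692 in the TA livers, so that all normal livers lay above the others. Dcn CPM were 28.0, 73.0 and 66.3, then 50.7, 56.4 and 52.9, then 45.3, 56.3 and 96.4, and these groups overlapped.

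**Figure D4:**
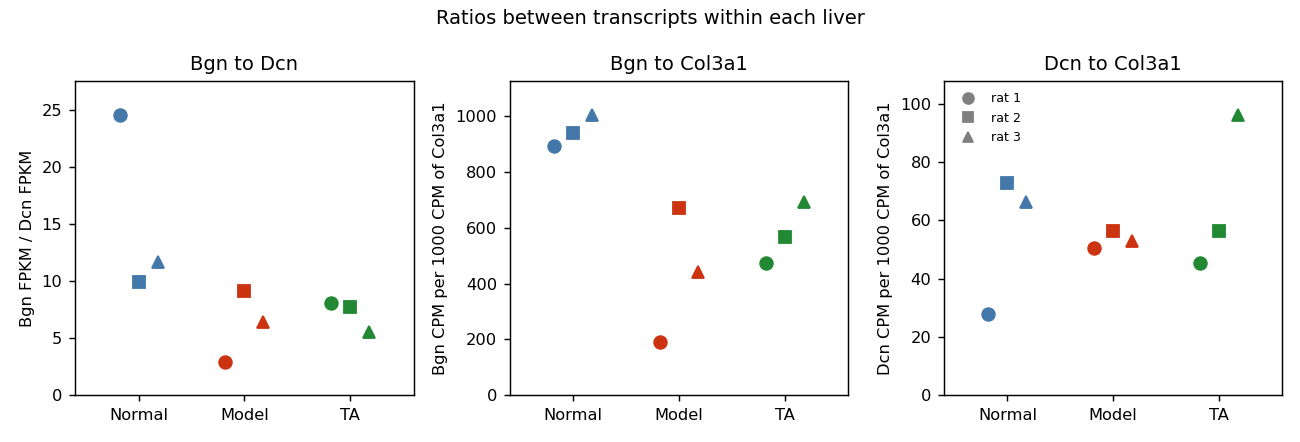
Ratios between transcripts within each liver, from left to right Bgn to Dcn FPKM, Bgn CPM per 1000 CPM of Col3a1 and Dcn CPM per 1000 CPM of Col3a1, on linear axes from 0, with 1 point per rat. In the first 2 panels every normal liver lies above every model and TA liver, and in the third the groups overlap.

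The genes around the core proteins were taken from lists of partners, enzymes and other proteoglycans, chosen with earlier results of these data known. Of all 12730 genes tested in Model vs Normal, 6.86% were called higher. Without the first model rat 888 of 12884 genes were called in either direction. Among these lists the largest share called in Model vs Normal was in the collagen, growth factor and receptor partners, with 9 of 16 tested called higher and 10 without the first model rat. They included Col1a1 (log2 fold change 7.08), Col4a1 (4.29), Col4a2 (4.21) and Col3a1 (4.17), which encode chains of fibrillar and basement membrane collagens. On the other 2 model rats these were 4.27, 2.49, 2.31 and 2.44. The median of this list was 3.08, and 1.97 without the first model rat.

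Among the 13 cell surface proteoglycans tested, 4 were called higher, with a list median of 2.69 and of 1.52 on the other 2 model rats. Gpc3 encodes a glypican that is abundant in fetal liver. Its CPM were 1.08, 0.965 and 0.755 in the normal livers, 10.5, 14.7 and 15.4 in the model livers, and 13.5, 6.17 and 8.05 in the TA livers. The normal livers did not overlap with the others, and the first model rat was not the highest. The log2 fold change of Gpc3 was 3.85 in Model vs Normal (standard error 0.35, edgeR adjusted p = 0.00742), 3.98 without the first model rat, and 3.27 in TA vs Normal (standard error 0.41, adjusted p = 0.0220). Cd44, a hyaluronan receptor, Nrp1, a co-receptor of VEGF, and Ptprz1, a receptor phosphatase, were higher in Model vs Normal by 3.43, 2.72 and 3.85 on the log2 scale. When the first model rat was left out, 3 of the list were called, and Ptprz1 was at an edgeR adjusted p of 0.0693. Cd44 and Nrp1 were then at 2.77 and 1.94. Ptprz1 reached the filter on low counts in 0 normal and 3 model livers and so had to differ to be tested.

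Of the 10 proteases and glycosidases that cleave proteoglycans, 4 were called higher in Model vs Normal (Mmp2, and Adamts8 at 4.58, Adamts15 at 3.95 and Adamts9 at 1.80, as log2 fold changes). The ADAMTS enzymes cleave versican-type core proteins, and Mmp2 is a gelatinase. Mmp2 CPM were 18.3, 9.65 and 6.04 in the normal livers, 374, 70.8 and 97.3 in the model livers, and 74.9, 55.5 and 51.8 in the TA livers, so that the normal livers lay below all others. On the other 2 model rats 3 of the 10 were called, Adamts8 at 4.59, Mmp2 at 2.87 and Adamts15 at 2.86. Of the 8 tested hyaluronan partners of versican 2 were called, Fbln1 (4.74), a matrix glycoprotein, and Tnfaip6 (4.35), which modifies hyaluronan, and both were called without the first model rat as well, at 3.72 and 3.89. Adamts8 and Tnfaip6 also reached the filter in 0 normal and 3 model livers.

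Enzymes that build and modify the sugar chains were also measured. Of 14 chondroitin and dermatan sulfate enzymes 3 were called higher in Model vs Normal. These were Chst14 (log2 fold change 2.70), a dermatan sulfotransferase, and Chsy1 (2.09) and Chpf (2.02), which extend the chondroitin chain. On the other 2 model rats only Chpf passed, and the edgeR adjusted p was 0.0552 for Chst14 and 0.0654 for Chsy1. Of 13 heparan sulfate enzymes 2 were called higher, Sulf1 (4.65, and 3.07 on the other 2 model rats), which removes sulfate groups outside the cell, and Hs3st1 (1.77), whose edgeR adjusted p was 0.0573 on the other 2 model rats. Of 5 keratan sulfate enzymes 1 was called higher, B3gnt7 (3.89), which reached the filter in 0 normal and 3 model livers. Of the 6 enzymes of the linker that joins chains to core proteins 0 were called, with a median of -0.22 and Xylt2 and Pxylp1 at -0.62 and -0.49 (edgeR adjusted p = 0.110 and 0.200).

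Of 12 other small leucine-rich proteoglycans listed, 4 were tested in Model vs Normal, 0 were called, and the median was -1.03. The median was -0.80 without the first model rat. Tsku encodes tsukushi, a secreted protein made by the liver. Its CPM were 161, 428 and 128 in the normal livers, 36.8, 86.7 and 66.8 in the model livers, and 489, 244 and 216 in the TA livers, with the model livers below all others. Tsku was at -1.91 in Model vs Normal (standard error 0.54, edgeR adjusted p = 0.0678). In TA vs Model it was at 2.32 (standard error 0.48, edgeR adjusted p = 0.230). On the other 2 model rats these values of Tsku were -1.67 and 2.05 (edgeR adjusted p = 0.105 and 0.296). Podn encodes podocan, and its CPM were 1630, 1765 and 2205 in the normal livers, 313, 728 and 1067 in the model livers, and 1325, 1700 and 1405 in the TA livers. In Model vs Normal Podn was at -1.41 (edgeR adjusted p = 0.140), and at -1.07 on the other 2 model rats (edgeR adjusted p = 0.0895). Of 6 other large, basement membrane and secretory proteoglycans tested 0 were called, and Srgn and Prg4 were at 0.87 and -0.51 (edgeR adjusted p = 0.145 and 0.266), or 0.50 and -0.29 on the other 2 model rats.

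In TA vs Model 0 genes of these lists were called. Among the 2 genes of smallest unadjusted p in each list were Cd44 at -2.44, Ptprz1 at -3.49, Sulf1 at -2.87, Chst12 at -2.14, Has3 at -2.14 and Nid2 at -1.55, given as log2 fold changes with edgeR adjusted p from 0.230 to 0.283. With the first model rat left out they were -1.78, -3.17, -1.30, -0.68, -2.01 and -0.98. Ptprz1 and Has3 were at most 0.569 and 0.507 CPM in the TA livers, under the filter's cutoff of 0.751 CPM. They thus passed the filter through the model livers and had to differ to be tested. In TA vs Normal, Gpc3, Col1a1 (log2 fold change 3.25), Tgfb3 (2.74), a TGF-β ligand, and Col6a1 (1.59) were called higher, and 0 genes of the other lists were. Mmp2 was at 2.39 (edgeR adjusted p = 0.0551).

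**Figure D5:**
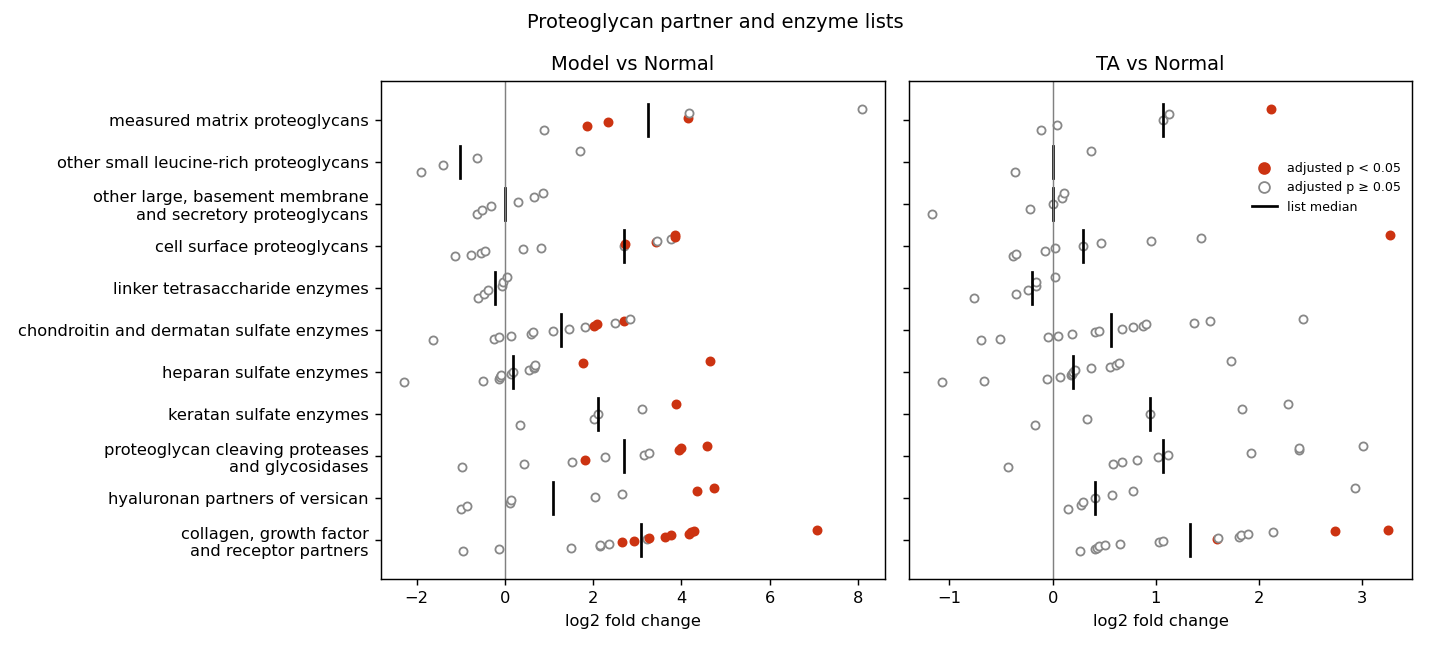
Log2 fold changes of the genes tested in each list, for Model vs Normal on the left and TA vs Normal on the right, with filled red points for an adjusted p under 0.05 and black bars for the list median. In Model vs Normal the measured proteoglycans and the collagen, growth factor and receptor partners have medians of 3.24 and 3.08, and the other small leucine-rich proteoglycans have -1.03.

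Correlations between members were taken across the 9 livers, which share groups and the first model rat, as a description. Pearson's r of log2 CPM was 0.959 for Bgn and Prelp, 0.952 for Dcn and Bgn, 0.926 for Dcn and Lum and 0.911 for Dcn and Prelp, and without the first model rat these were 0.933, 0.895, 0.878 and 0.843 over 8 livers. For Lum r was 0.858 with Bgn, 0.796 with Prelp and 0.833 with Vcan, and 0.680, 0.648 and 0.368 over the 8 livers. For Dcn and Vcan r went from 0.705 to 0.232 and for Dcn and Hspg2 from 0.644 to 0.108.

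Over 10935 genes whose log2 CPM averaged 1 or more, the patterns most like Dcn were those of Col6a2, Trem2 and Ms4a6c (r from 0.978 to 0.983), and those most like Bgn were Creb3l1, Fbn1 and Col6a3 (0.994 to 0.995). Prelp was followed most closely by Mmp2, Fstl1 and Nrp1 (0.983 to 0.986), Lum by Golt1b, Sec14l1 and Kremen1 (0.969 to 0.979), Vcan by Shroom4, Atp13a2 and Pcdh18 (0.949 to 0.950) and Hspg2 by Ddit4, Lyn and Ywhah (0.979 to 0.986). Fmod, at low counts, was followed by Ccdc93, Rpl8 and LOC680385 (0.906 to 0.921). Without the first model rat r stayed at 0.951 or above for the genes named for Dcn, Bgn and Prelp, and was as low as 0.836 for those of Vcan.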

How the data were processed

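Liver RNA of 9 rats was sequenced after poly(A) selection. Per the study's methods, reads were trimmed, mapped with STAR and assigned to genes with HTSeq-count. The methods name a human genome and the processing notes mouse build mm9, while the gene names are those of rat, so no gene coordinates of the tables are given. The authors deposited unnormalized read counts of each gene. They also deposited FPKM, scaled by the length of their gene model and by the counted reads of the library. Their own fold changes and p-values from DESeq2 were not used.

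Counts were tested with edgeR 4.0.16 (R 4.3.3), quasi-likelihood test, TMM normalization and the edgeR filter on low counts (minimum count 10), using the libraries of the groups compared. TA vs Normal used the 16730 genes in both tables, in which the model counts were identical. The standard error of a log2 fold change was obtained by dividing it by the root of the F statistic. Alternatives were DESeq2 1.42.0, limma 3.58.1 voom with sample quality weights, other normalizations and filters, a joint fit of all 9 libraries, a replicate block, and fits that each dropped 1 library. Counts of list genes without the first model rat were added after the data had been seen. The test was also run on simulated data, and the outcome of that run is not reported here.

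Replicate numbers come from the library labels and mark different animals. Between TA and normal rats, the residuals of rats with the same number correlated at r from 0.258 to 0.501 across genes, against -0.452 to 0.171 for others, so the blocked values are given there. Depth was 13156735 to 18090405 counted reads per liver, and errors include both depth and the differences between animals. The 3-read limit at a count of 0 covers counting error alone.

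The members and lists were chosen with earlier results of these data known. Named beside the members were up to 4 called genes per list and comparison by size of log2 fold change, or 2 by smallest p where 0 were called, not all of which are printed, the leading marker of each cell type, and the 3 genes most like each member by Pearson's r of log2 CPM (prior count 2). Gene names were matched by symbol or RefSeq synonym.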

Additional observations from a re-analysis of the deposited data

How the results depend on the processing

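In Model vs Normal 3 members were called, and 5 were called with library totals in place of TMM, with no filter on low counts, with all 9 libraries in 1 fit and by the unadjusted rule. Of all genes 1002 were called, and 1980, 1215 and 1757 in the first 3 of these. Leaving out each library in turn gave 0 to 5 members. There were 0 without any 1 of the normal rats, where 51, 0 and 0 of all genes were called. There were 3 without the first model rat (888 of all genes), 3 without the second (589) and 5 without the third (2537). In TA vs Model 0 members were called, 3 by the unadjusted rule and 0 with each library left out in turn. In TA vs Normal 1 member was called, among 32 of all genes. DESeq2 called 3 members among 341 genes, limma voom 2 among 126 and the replicate block 3 among 203. The fit of all 9 libraries called 0 among 14, and the unadjusted rule 3 among 516 higher genes. With each library left out it was 0 to 1, while the number of all genes called ran from 1 to 61. The difference in log2 ratio of Bgn to Dcn in TA vs Model was 0.34 and ran from -0.13 without the first model rat to 0.70 without the second. Vcan in TA vs Normal turned from 0.04 to -1.33 with limma voom, -0.20 with the block, -0.24 without the second normal rat and -0.97 without the third TA rat, with 0.57 at the other end without the first TA rat. Hspg2 turned from -0.12 to 0.078 with library totals, 0.03 without the first normal rat and 0.072 without the third TA rat, with -0.39 without the first TA rat. The cause was not tested.

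Of the other values of single members under an alternative, 246 kept their direction and side of the threshold, 16 passed it newly, 15 no longer passed and 4 had no p-value, from DESeq2 for Lum and Vcan in Model vs Normal and TA vs Model. Library totals moved the median of all genes from 0.02 to 0.65 in Model vs Normal, from -0.00 to -0.48 in TA vs Model and from -0.01 to 0.18 in TA vs Normal. In the other 2 comparisons same-numbered rats correlated at -0.06 to 0.22, and other pairs at -0.21 to 0.20. The replicate block called 4 members for the model against the normal group, among 1216 of all genes. For TA against the model group it called 0 members and 0 of all genes. With 3 rats a group, and counts of 29 or fewer for Lum and Fmod outside the first model rat, smaller differences of those genes could not be seen.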

Other observations

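In RefSeq assembly GRCr8 several members are neighbours on their chromosomes. Dcn and Lum lie next to each other on chromosome 7, followed by Kera and, as a further member of the family, Epyc, which had 1 read over all 9 livers. Prelp and Fmod lie next to each other on chromosome 13, beside Optc, which encodes opticin. Neighbouring genes differed in level. The first model rat had 7794 reads of Dcn and 5804 of Lum, and 4132 of Prelp and 25 of Fmod. Model rats 2 and 3 had 638 and 764 reads of Dcn and 29 and 28 of Lum, and 1178 and 1424 reads of Prelp and 6 and 5 of Fmod. Optc had 9, 1 and 2 reads in the normal livers, 23, 18 and 13 in the model livers and 12, 9 and 10 in the TA livers, with a log2 fold change of 1.70 in Model vs Normal (edgeR adjusted p = 0.200). Vcan lies beside Hapln1 on chromosome 2. Hapln1 encodes a link protein that joins versican to hyaluronan, and it had 0 reads in all 3 normal livers, 5, 0 and 1 in the model livers and 2, 0 and 10 in the TA livers, too few to be tested. Optc, Epyc and Hapln1 were named here for their position, after their values were seen.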
